A study of Bos taurus with 8 samples.

Results

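Collagen genes were taken as every gene on the array whose symbol reads COL, a number, the letter A and a number, such as COL1A1. Of the 16669 gene symbols on the array 39 met this rule, with 118 of the 51282 probes. By the kind of assembly their chains form, 10 are fibrillar collagens, 5 are type IV collagens of basement membranes and 24 belong to other types. Messenger RNA was read with 8 Agilent bovine arrays of a single colour, 4 labelled pregnant and 4 labelled non-pregnant. All 8 samples carry the labels fetal cotyledon (the part of the ruminant placenta that the fetus contributes), female sex and cattle. The samples labelled non-pregnant are described as before pregnancy and the pregnant-labelled ones as after it, while the protocol text, the same for all, speaks of gravid uteri of slaughtered buffalo. No breed, age or day of gestation is given, and whether the samples of a group are separate animals is not said, so the p-values reflect only how far these samples vary, which may be technical variation.

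Collagens are chains that wind into triple helices and are the main structural proteins of connective tissue. Fibrillar collagens pack into the fibrils that give a tissue its strength, whereas type IV collagens join into the sheet-like network of basement membranes beneath epithelia and around vessels. The remaining types coat fibrils, anchor basement membranes, form beaded filaments or sit in the cell membrane, and in the placenta collagen fills the stroma of the villi and the maternal tissue that faces them.

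Measured placental and uterine transcripts went against the labels, so the groups are named below by what their labels say and not as pregnant and non-pregnant tissue. Levels are log2 signal minus the 75th percentile of the same array, so a level of 0 is that percentile, and differences are means of pregnant-labelled arrays minus means of non-pregnant-labelled arrays. Of 11 trophoblast genes 10 were measured in both groups, of which ELF5 was higher and the other 9 were lower on the pregnant-labelled arrays, where the summed level of the list ran from 2.54 to 4.0 against 9.18 to 9.83 on the others. CDX2 was well above background on no pregnant-labelled array. A probe of the symbol PAG1 was left out of this list, as it lies on chromosome 14 while those of PAG2 and PAG11 lie on chromosome 29. Endometrial genes, 4 of 5 measured in both groups higher and ESR1 and HOXD10 well above background on no non-pregnant-labelled array, summed to 6.60 to 7.80 on the pregnant-labelled arrays and to 0.57 to 1.86 on the others. The erythroid genes HBB, HBM and ALAS2 were well above background on all 4 non-pregnant-labelled arrays and on no pregnant-labelled array. Fibroblast genes summed to 8.05 to 8.59 against 6.33 to 7.23, with all 10 well above background on every array, 7 higher and 1 lower. Smooth muscle genes (5 of 8 higher) summed to 5.65 to 6.71 against 4.67 to 5.17, endothelial genes (3 higher and 1 lower of 8) to 4.87 to 5.79 against 3.93 to 4.30, pericyte genes (3 of 4 tested higher) to 3.17 to 3.86 against 2.41 to 3.05, leukocyte genes (5 higher and 1 lower of 7 measured in both groups) to 4.53 to 5.94 against 5.99 to 6.5, and epithelial genes (6 of 8 lower) to 5.72 to 6.75 against 7.36 to 8.09. The leukocyte sum on the non-pregnant-labelled arrays came mostly from CSF1R, the 1 called lower, at 5.83 to 6.24 there and 3.33 to 4.36 on the others. CD3E, CD74, CD14, CD68 and CORO1A were the 5 called higher, so that sum does not stand for the list. Nor does the endothelial sum, as VWF, ENG and EGFL7 rose, PECAM1 fell and 4 genes were not called (median difference 0.12). Over all genes 29.7% were called higher and 33% lower. The part of these cell types in the collagen values was not tested, and in such bulk samples fewer cells of a type and less RNA per cell cannot be told apart. All 8 arrays lay on 1 slide, where each label's 4 arrays filled a row of their own, so position on the slide and label cannot be told apart.

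The 60-base probes carry a mark of the protein. A collagen helix needs a glycine at regular steps of its chain, so its coding sequence has a GGN codon every 9 bases. This spacing was unbroken along the whole probe in 15 of the 118 collagen probes (12.7%), from 13 genes, and in 20 of all 51282 probes on the array (0.039%). None of the collagen probes held it on the reverse strand. The sequences below are 6 of the 7 such probes that were tested, each 5′ to 3′ with the GGN codons of that frame in capitals, and they are shown because their position within the helix-coding part can be read from the letters alone.
COL1A1: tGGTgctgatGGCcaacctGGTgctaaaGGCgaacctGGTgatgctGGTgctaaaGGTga
COL1A2: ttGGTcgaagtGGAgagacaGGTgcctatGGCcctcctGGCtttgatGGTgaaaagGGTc
COL2A1: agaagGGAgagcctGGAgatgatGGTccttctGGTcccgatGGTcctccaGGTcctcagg
COL5A3: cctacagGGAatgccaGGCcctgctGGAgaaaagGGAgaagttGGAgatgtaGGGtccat
COL4A1: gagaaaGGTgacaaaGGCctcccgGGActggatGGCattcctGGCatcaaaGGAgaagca
COL6A2: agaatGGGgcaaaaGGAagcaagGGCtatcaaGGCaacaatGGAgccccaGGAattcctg

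On the build Btau_3.1, which the scanner files name, these probes lie at chr19:37646195-37646474 (COL1A1), chr4:12047111-12047170 (COL1A2), chr5:35492569-35492870 (COL2A1), chr7:13019375-13019510 (COL5A3), chr12:82969811-82969870 (COL4A1) and chr1:148774362-148774705 (COL6A2). Exon, intron and untranslated region are not given for them in the sources used here, although the intervals of COL1A1, COL2A1, COL5A3 and COL6A2 are longer than the probe. The COL6A2 probe gave a difference of 3.22 (SE 0.21, adjusted p = 3.18e-06) and the COL5A3 probe one of 0.85 (SE 0.32, adjusted p = 0.0482). The COL4A1 probe gave -0.93 (SE 0.21, adjusted p = 0.00411). The probes of COL1A1, COL1A2 and COL2A1 gave 1.26, 1.01 and 0.70, each with an adjusted p above 0.05 (0.0742, 0.0711 and 0.0591). The helix-coding probes of COL1A1, COL1A2, COL5A3, COL4A1 and COL6A2 gave differences of the same sign as the other tested probes of those genes.

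Most collagen genes that were called were higher on the pregnant-labelled arrays, and the type IV genes COL4A1 and COL4A5 were among the few that were lower. Of the 39 genes 32 had a probe that 4 or more of the 8 arrays read well above background, and these were tested. In limma, with p-values adjusted over every tested probe by the Benjamini-Hochberg method, 15 were called higher and 5 lower at an adjusted p below 0.05, and 12 were not called. Over all genes 62.7% of 13004 were called, 29.7% higher and 33% lower, so the collagen share of 62.5% was close to the share of all genes. COL26A1 and COL28A1 passed the filter only through the group where they are high, so they had to differ and their calls are no test. Of the 30 collagen genes well above background on an array of each group, 14 rose, 4 fell and 12 were not called, beside 60.9% of 12362 such genes called, 28.8% higher and 32.2% lower. At 2-fold or more 18 collagen genes were called, beside 48% of all genes. The 4 arrays of each label did not overlap for 17 of the 32, beside 60.2% of all genes. Both counts include COL26A1 and COL28A1, for which they are no test. The median difference was 0.74 over the 32 collagen genes and -0.03 over all genes tested. Differences ran from -2.23 to 6.64, the fitted value of COL26A1, and to 6.06 over the 30 measured in both groups. Probes well above background on no array had a median difference of 0.77, and the part of this offset in dim collagen genes was not tested. Among the 20 collagen genes measured on all 8 arrays, 10 were higher and 3 lower. With normexp background correction the called genes split into 16 higher and 2 lower. With each array centred on its median the split was 13 to 5, but over all genes the higher share of called genes went from 47.4% to 34.7%.

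**Figure D1:**
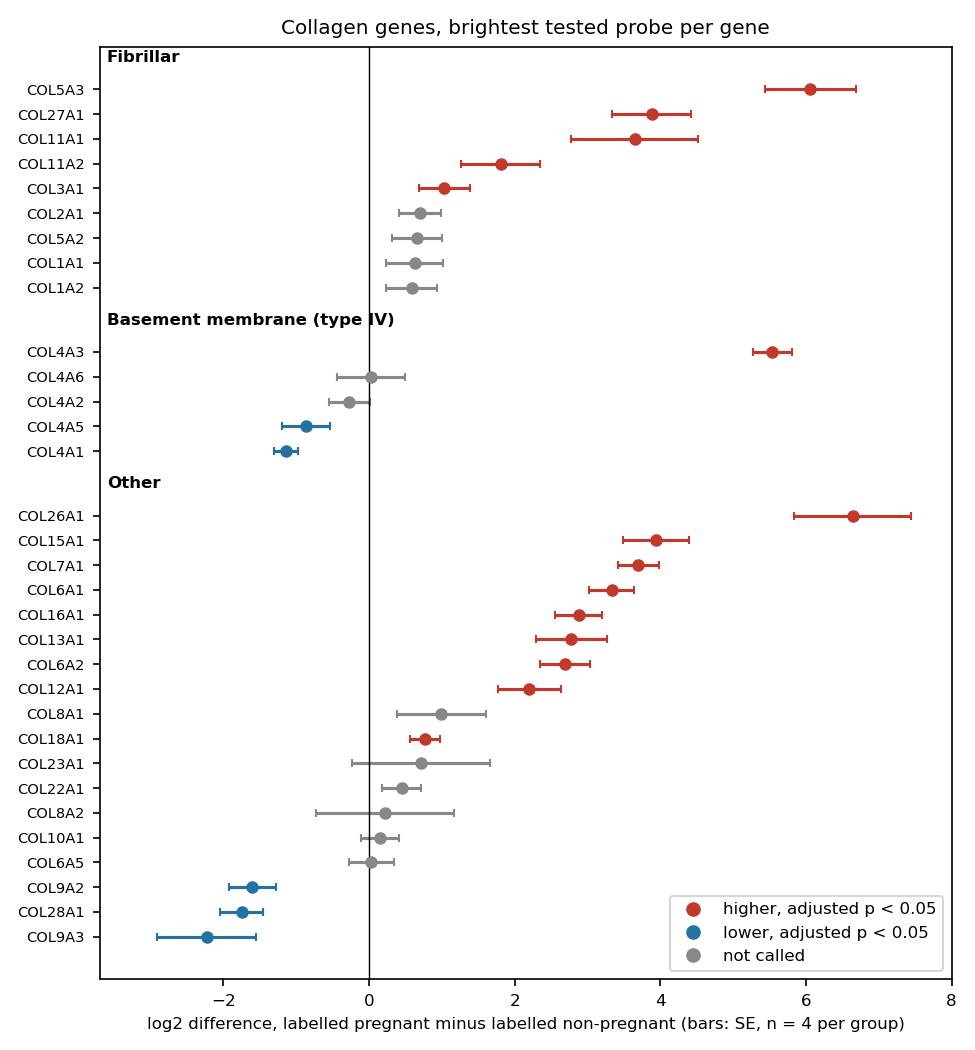
Difference for each of the 32 tested collagen genes by its brightest tested probe, on the x axis as log2 of the pregnant-labelled arrays minus the non-pregnant-labelled ones, with 1 row per gene and bars for the SE (4 arrays per group). All 9 fibrillar genes lie right of 0, type IV genes lie on both sides, and the fitted points of COL26A1 and COL28A1 rest on a group that was not well above background.

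The fibrillar genes all gave positive differences, and 5 of the 9 tested rose: COL5A3, COL27A1, COL11A1, COL11A2 and COL3A1. The share called was 55.6%, beside 62.7% of all genes (29.7% higher and 33% lower). The median difference of the 9 fibrillar genes was 1.03, beside -0.03 over all genes tested. Probes of the array that were well above background nowhere had a median difference of 0.77 on this scale. Dim COL2A1, at 0.70, did not exceed that, and dim COL11A2 gave 1.81. The part of this offset in their values was not tested. The abundant chains of tissue fibrils, COL1A1, COL1A2 and COL3A1, differed least among the fibrillar genes together with COL2A1 and COL5A2. Under every scaling tried the 9 differences stayed positive, but the number called ranged from 3 without scaling to 8 with quantile normalization.

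COL1A1, which encodes the alpha-1 chain of type I collagen (probe at chr19:37651511-37651570), read 4.39, 5.55, 5.51 and 4.21 on the non-pregnant-labelled arrays and 5.37, 6.17, 5.69 and 4.95 on the pregnant-labelled ones. COL1A2, its partner chain (chr4:12054392-12054451), read 4.16, 5.39, 5.22 and 4.28 against 4.86, 5.87, 5.11 and 5.58. Non-pregnant arrays 2 and 3 were high and 1 and 4 low for both chains, and the groups overlapped. The differences were 0.63 (SE 0.39, adjusted p = 0.195) and 0.59 (SE 0.35, adjusted p = 0.178), both within the SD of the non-pregnant-labelled arrays (0.72 and 0.64). All 5 COL1A1 probes and all 6 COL1A2 probes gave positive differences, from 0.45 to 1.26 and from 0.59 to 1.15, and none was called. With quantile normalization both were called, at 1.14 and 1.13.

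COL3A1, the type III chain of stretchable tissues (chr2:7740123-7740182), read 5.15, 6.31, 6.13 and 5.06 on the non-pregnant-labelled arrays and 6.93, 7.02, 6.75 and 6.09 on the pregnant-labelled ones. The same non-pregnant arrays, 1 and 4, were low, and only pregnant array 4 reached into the range of the other group. COL3A1 rose by 1.03 (SE 0.35, adjusted p = 0.0304), and 8 of its 10 probes were called higher, with differences from 0.91 to 1.45. The call did not hold with median scaling (0.65, adjusted p = 0.154) or without scaling (0.55, adjusted p = 0.2). It was also lost without non-pregnant array 1 (0.86) or 4 (0.83) and without pregnant array 1 (0.96), 2 (0.93) or 3 (1.02), with adjusted p from 0.0656 to 0.0794.

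**Figure D2:**
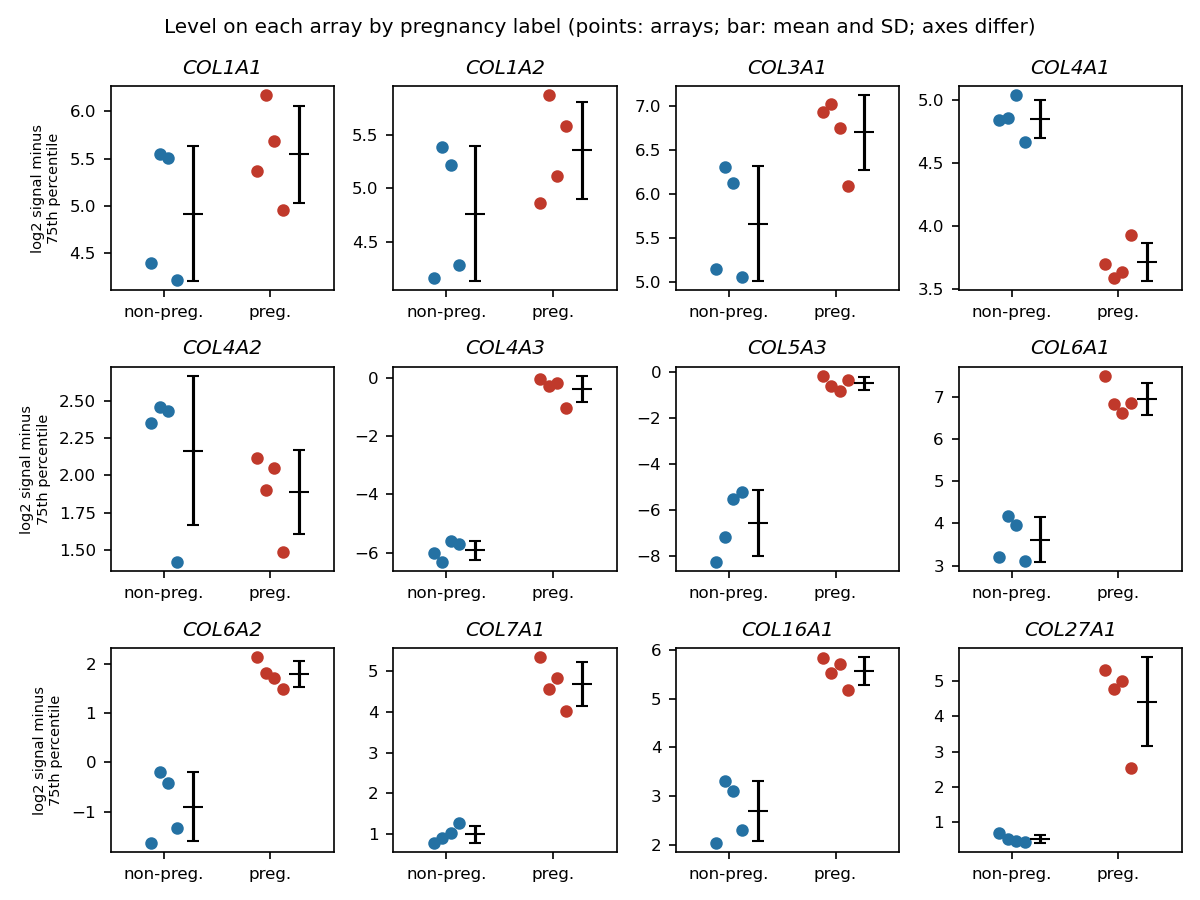
Level of 12 collagen genes on each array, with log2 signal minus the array's 75th percentile on each y axis (axes differ between panels), points for arrays in order of replicate number, and bars for mean and SD. COL1A1, COL1A2 and COL4A2 overlap between labels, COL3A1 overlaps by 1 pregnant-labelled array, and the other 8 genes do not overlap.

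COL5A3, a minor type V chain (chr7:13005582-13005641), read -8.28, -7.20, -5.54 and -5.25 on the non-pregnant-labelled arrays, where 2 of 4 were well above background, and -0.20, -0.64, -0.83 and -0.35 on the pregnant-labelled ones. Every pregnant-labelled array lay far above the other group, and the rise was 6.06 (SE 0.62, adjusted p = 4.39e-05). Its 4 probes were all called higher but differed in size, from 0.85 to 6.06, the smallest being the helix-coding probe printed above. COL5A2, the other type V chain with a symbol, gave 0.66 (SE 0.34, adjusted p = 0.12) by its brightest probe, while its second probe was called at 1.11 (SE 0.38, adjusted p = 0.0312).

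COL27A1, a fibrillar collagen known from cartilage (chr8:108862006-108862065), read 0.70, 0.53, 0.46 and 0.43 on the non-pregnant-labelled arrays and 5.32, 4.77, 5.02 and 2.55 on the pregnant-labelled ones. Pregnant array 4 was the lowest of its group but lay above every array of the other label, and the rise was 3.88 (SE 0.54, adjusted p = 2.91e-04). Without that array it was 4.51. All 3 tested probes were called, from 3.74 to 4.28.

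COL11A1, which sets the diameter of cartilage fibrils (chr3:43430561-43430620), read -4.81, -3.35, -3.75 and -6.48 on the non-pregnant-labelled arrays, 3 of them well above background, and -1.90, 0.27, 0.47 and -2.60 on the pregnant-labelled ones. Both groups spread widely without overlap, and the rise was 3.65 (SE 0.87, adjusted p = 0.00595). All 5 tested probes gave positive differences. For 1 of them (chr3:43431060-43431119), no non-pregnant-labelled array was well above background. It passed the filter only through the other group, so its call is no test, and it was at least 30.9-fold higher. The others were called, from 1.63 to 4.31. COL11A2, its partner chain (chr23:7626582-7626641), was dim, well above background on 1 non-pregnant-labelled array and 3 labelled pregnant, and rose by 1.81 (SE 0.54, adjusted p = 0.0167), with overlap between groups. Without scaling it gave 1.33 (adjusted p = 0.0999), and it did not pass the filter, and so has no value, without non-pregnant array 4 or pregnant array 1, 3 or 4.

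COL2A1, the main cartilage collagen, was dim and gave 0.70 (SE 0.29, adjusted p = 0.0591), but was called without non-pregnant array 2 (0.91) or pregnant array 3 (0.85). The brightest COL24A1 probe was well above background on 1 array only and was not tested. For COL5A1 no probe carried the symbol. A probe that the files describe as collagen type V alpha 1 was well above background on no non-pregnant-labelled array and 3 labelled pregnant, at -8.19, -6.46, -5.86 and -6.75 against -5.21, -4.27, -4.42 and -5.37, and was not tested. Probes named in this way only by a description were left out of all counts.

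Type IV genes moved in both directions: of the 5 genes, all tested, COL4A3 rose, COL4A1 and COL4A5 fell, and COL4A2 and COL4A6 were not called by their brightest probe. The share called was 60%, beside 62.7% of all genes (29.7% higher and 33% lower). The median difference of the 5 type IV genes was -0.27. The chains COL4A1 and COL4A2 build the common network of basement membranes, whereas COL4A3, COL4A4, COL4A5 and COL4A6 occur in more specialised ones.

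COL4A1 (chr12:82951471-82951530) read 4.84, 4.86, 5.04 and 4.67 on the non-pregnant-labelled arrays and 3.70, 3.59, 3.64 and 3.93 on the pregnant-labelled ones. The arrays of each group lay close together, with no overlap, and COL4A1 fell by 1.14 (SE 0.17, adjusted p = 4.61e-04). All 4 probes gave negative differences, from -1.14 to -0.62, and 2 were called, 1 of them the helix-coding probe. COL4A2 (chr12:83238935-83238994) read 2.35, 2.46, 2.43 and 1.42 against 2.12, 1.90, 2.05 and 1.49. Array 4 was low in both groups, the groups overlapped, and the difference of -0.27 (SE 0.28, adjusted p = 0.421) was smaller than the SD of 0.50 among the non-pregnant-labelled arrays. Of its 3 tested probes 1 was called, at -0.47 (adjusted p = 0.0429), and without scaling the brightest was called at -0.76.

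COL4A3 (chr2:120111233-120111292) read -6.03, -6.33, -5.60 and -5.72 on the non-pregnant-labelled arrays, where 2 of 4 were well above background, and -0.05, -0.29, -0.16 and -1.03 on the pregnant-labelled ones. The groups lay far apart without overlap, and the rise was 5.54 (SE 0.27, adjusted p = 8.18e-07). Its second tested probe gave 4.90 (SE 0.39, adjusted p = 1.06e-05). A probe described as collagen type IV alpha 4, without a symbol, also read higher, at -3.73, -3.57, -3.42 and -4.40 against -5.83, -7.26, -7.21 and -7.71 (difference 3.22, SE 0.41, adjusted p = 1.58e-04), with 1 of 4 non-pregnant-labelled arrays well above background.

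COL4A5 (chrX:35166231-35166290) had 1 probe and fell by 0.87 (SE 0.33, adjusted p = 0.0437), with levels from -1.72 to -1.07 on the non-pregnant-labelled arrays and from -3.12 to -1.64 on the pregnant-labelled ones. The ranges overlapped, and the call was lost with normexp background correction (-0.62), with scaling to a percentile of the always-detected probes (-0.71), and without non-pregnant array 1 (-0.91), 2 (-0.78) or 3 (-0.82) or pregnant array 2 (-0.87), 3 (-0.97) or 4 (-0.58). The COL4A6 probes disagreed in size. The brightest (chrX:34541046-34541105) gave 0.03 (SE 0.47, adjusted p = 0.961), and another (chrX:34542435-34542494) was well above background on no non-pregnant-labelled array and on all 4 labelled pregnant, at -1.5, -2.17, -1.55 and -2.59, which was at least 47.5-fold higher. This second probe passed the filter only through the group where it is high, so no p-value is given for it. These 2 probes read different places of the gene and gave no single answer for COL4A6.

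Among the other types 18 of 24 genes were tested, and of the 16 measured in both groups 8 rose, 2 fell and 6 were not called, with a median difference of 0.88. Of all genes measured in both groups 60.9% were called, 28.8% higher and 32.2% lower, so the 10 of 16 called here were near that share. The genes that rose included COL6A1 and COL6A2, chains of the beaded filaments, the anchoring fibril collagen COL7A1, both multiplexins and the fibril-associated COL12A1 and COL16A1. The 2 that fell were COL9A2 and COL9A3.

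COL6A1 (chr1:148572191-148572250) encodes a chain of the beaded filaments around cells. COL6A1 read 3.20, 4.17, 3.96 and 3.12 on the non-pregnant-labelled arrays and 7.48, 6.83, 6.62 and 6.84 on the pregnant-labelled ones. COL6A2, a second chain (chr1:148783957-148784016), read -1.64, -0.20, -0.41 and -1.34 against 2.14, 1.82, 1.72 and 1.5. Neither gene overlapped between groups, and non-pregnant arrays 1 and 4 were again the low ones of their group. COL6A1 rose by 3.33 (SE 0.31, adjusted p = 2.32e-05) and COL6A2 by 2.69 (SE 0.34, adjusted p = 1.65e-04), and all 3 and all 4 of their probes were called. COL6A5 gave 0.03 (SE 0.31, adjusted p = 0.939) and was negative with median scaling (-0.36), without scaling (-0.45) and with quantile normalization (-0.46). COL6A6 was well above background on no array.

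Probes described as collagen type VI alpha 3, with no symbol, followed the same direction. The brightest of 4 read 1.21, 1.40, 1.16 and 1.25 on the pregnant-labelled arrays against -3.81, -2.46, -1.96 and -1.68, a difference of 3.73 (SE 0.42, adjusted p = 7.87e-05). A second was at least 8.13-fold higher, well above background on no non-pregnant-labelled array, and the other 2 were not tested.

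COL7A1 (chr22:52520518-52520577), whose protein anchors basement membranes to the stroma below, read 0.77, 0.90, 1.02 and 1.27 on the non-pregnant-labelled arrays and 5.35, 4.56, 4.84 and 4.03 on the pregnant-labelled ones. The groups lay far apart, and the rise was 3.70 (SE 0.28, adjusted p = 8.33e-06), with its second, overlapping probe at 3.75. Of the multiplexins, which link basement membranes to the matrix, COL15A1 (chr8:66876827-66876886) read -4.94, -5.53, -5.35 and -6.20 against -0.97, -1.16, -1.24 and -2.88. Pregnant array 4 stood below the rest of its group but above the others, and COL15A1 rose by 3.94 (SE 0.45, adjusted p = 8.43e-05), or by 4.38 without that array. COL18A1 rose by 0.77 (SE 0.21, adjusted p = 0.0116), and all 6 of its probes were called higher, from 0.77 to 2.19. By its brightest probe that call was lost with median scaling (0.38) and without scaling (0.28).

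The collagens that coat fibrils split. COL16A1 (chr2:126045911-126045970) read 2.03, 3.30, 3.11 and 2.29 on the non-pregnant-labelled arrays and 5.84, 5.54, 5.71 and 5.18 on the pregnant-labelled ones, a rise of 2.88 (SE 0.32, adjusted p = 6.72e-05). COL12A1 (chr9:14443088-14443147) read 0.05, 1.32, 1.13 and -0.01 against 2.71, 3.38, 3.30 and 1.87, a rise of 2.20 (SE 0.43, adjusted p = 0.0022). Both genes had non-pregnant arrays 1 and 4 below 2 and 3, and neither overlapped between groups.

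COL9A2 (chr3:112906675-112906734) and COL9A3 encode chains of type IX collagen, which decorates type II fibrils in cartilage. COL9A2 fell by 1.6 (SE 0.32, adjusted p = 0.00244), with levels from -1.38 to -0.39 on the non-pregnant-labelled arrays and from -3.07 to -1.91 on the pregnant-labelled ones. COL9A3 (chr13:55234429-55234488) read -3.63, -0.85, -1.98 and -4.36 against -5.21, -4.52, -4.94 and -5.09. Non-pregnant arrays 1 and 4 were close to the other group, and the fall of 2.23 (SE 0.68, adjusted p = 0.0194) was called no longer without non-pregnant array 3 (-1.99, adjusted p = 0.0545) or with normexp background correction (-1.10, adjusted p = 0.0875). COL22A1 gave 0.45 (SE 0.27, adjusted p = 0.17), and COL14A1, COL20A1 and COL21A1 were too dim to test.

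COL13A1 (chr28:25483739-25483798) spans the cell membrane. It read -0.51, -0.51, -0.49 and -0.37 on the non-pregnant-labelled arrays and 3.77, 1.91, 2.48 and 1.09 on the pregnant-labelled ones. The non-pregnant-labelled arrays were almost equal and the pregnant-labelled ones spread widely above them, and the rise was 2.78 (SE 0.49, adjusted p = 0.00112). Of the other membrane collagens COL23A1 gave 0.71 (SE 0.95, adjusted p = 0.54), and COL17A1 and COL25A1 were not tested.

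COL26A1 (chr25:37356746-37357570), the highest fitted value of the family, read -8.26, -7.65, -8.02 and -8.64 on the non-pregnant-labelled arrays, where it was well above background on none, and -0.39, -0.77, -0.59 and -4.28 on the pregnant-labelled ones. It was at least 95.8-fold higher, although pregnant array 4 stood far below the rest of its group, and it did not pass the filter without any 1 of the 4 pregnant-labelled arrays. COL28A1 (chr4:15755153-15755212) read -5.41, -5.25, -5.66 and -5.47 against -7.34, -7.26, -7.78 and -6.41, the latter well above background on no array. It was at least 2.74-fold lower. With normexp background correction it gave -0.18 and was not called, and it did not pass the filter without any 1 non-pregnant-labelled array. The 10819 probes of the array that were well above background nowhere had medians of -8.20 and -7.49 on this scale, and probe by probe their median difference was 0.77.

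The short-chain network collagens were not called by their brightest probes. COL8A1, found around vessels, gave 0.99 (SE 0.61, adjusted p = 0.188), yet 2 of its 4 tested probes were called, at 1.54 and 1.67. COL8A2 gave 0.22 (SE 0.95, adjusted p = 0.852) and COL10A1, a marker of growth plate cartilage, 0.15 (SE 0.26, adjusted p = 0.643), and both were negative with median scaling, without scaling and with quantile normalization.

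The 7 untested genes were COL6A6, COL14A1, COL17A1, COL20A1, COL21A1, COL24A1 and COL25A1. Their brightest probes were well above background on at most 2 arrays, and COL6A6, COL17A1 and COL21A1 on none.

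Several probes of a gene mostly gave 1 answer on direction. Of the 18 genes with several tested probes, all 18 had every tested probe on 1 side of 0, 10 had every probe called, 6 had some and 2, COL1A1 and COL1A2, had none. No gene had probes called in both directions. These counts include 1 probe of COL4A6 and 1 of COL11A1 that passed the filter only through the group where they are high, so their calls are no test. Probe agreement was not counted over all genes, of which 62.7% were called by their brightest probe, so it cannot be read as a trait of collagens. Some probes of COL1A2, COL3A1 and COL7A1 overlap in position and are not separate readings. Sizes differed most for COL4A6, COL5A3 and COL11A1, whose probes spanned 5.81, 5.21 and 3.63 on the log2 scale. The spans of COL4A6 and COL11A1 rest on the fitted values of those 2 probes, for which only a bound was measured.

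**Figure D3:**
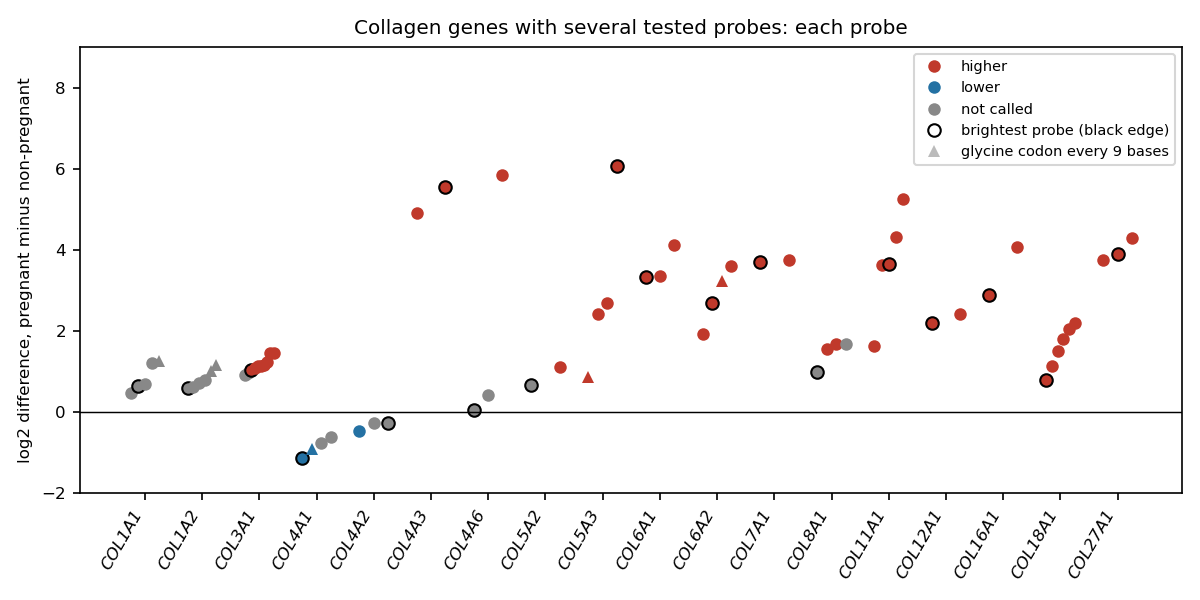
Difference of every tested probe of the 18 collagen genes with several, as log2 of the pregnant-labelled arrays minus the non-pregnant-labelled ones, with 1 column per gene, a black edge on the brightest probe and triangles for probes with a glycine codon every 9 bases. Probes of COL3A1 lie within 0.91 to 1.45, while those of COL5A3 run from 0.85 to 6.06. The highest points of COL4A6 and COL11A1 rest on a group that was not well above background.

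Chains that share a helix were set side by side in 6 pairs by the change in the log2 ratio of their brightest probes, tested by exact permutation of 4 against 4 arrays (two-sided), which cannot give less than 0.0286. COL1A1 against COL1A2 changed by 0.04 (exact p = 0.914, adjusted over the 6 pairs 0.914). COL6A1 against COL6A2 changed by 0.64 with no overlap between groups (exact p = 0.0286, adjusted p = 0.0857). COL4A5 against COL4A6 gave -0.90 (exact p = 0.0286, adjusted p = 0.0857), a value that holds only for the brightest COL4A6 probe, and COL4A1 against COL4A2 -0.86 (exact p = 0.0571, adjusted p = 0.114). The pairs of type VIII (0.77, exact p = 0.486) and type XI (1.84, exact p = 0.286) spread widely. No pair passed 0.05 after adjustment, which a pair could do here only if several others also reached the smallest p.

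Within each group some arrays were the lowest or the highest for many, but not all, of the tested collagen genes. Such counts were not made over all genes. Non-pregnant arrays 1 and 4 were each the lowest of their group for 14 of the 32 tested genes, and non-pregnant array 2 was the highest for 19. Pregnant array 4 was the lowest of its group for 19 genes, with a median deviation of -0.46 from the other 3. On that array the summed levels of fibroblast (8.05), smooth muscle (5.65), endometrial (6.60), leukocyte (4.53), pericyte (3.17) and trophoblast genes (2.54) were also the lowest of the group, and that of epithelial genes (6.75) was the highest. Members did not all follow these sums. MYH11 (2.62), CNN1 (2.51), ACTG2 (1.70) and SERPINA14 (2.85) were highest of the group on that array, and the epithelial gene KRT19 (2.53) was lowest. The placental genes PAG2 (-5.20), CSH2 (-2.95) and PRP1 (-5.43) were lowest on pregnant array 2. The part of these lists in the collagen levels of pregnant array 4 was not tested. Without it 17 collagen genes were called.

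The enzymes that prepare collagen chains in the endoplasmic reticulum split in direction. Of 21 listed genes for hydroxylation, glycosylation, folding and export 20 had a probe and 19 were tested, with 8 higher, 4 lower and 7 not called (median 0.60). The share called, 63.2%, was close to the 62.7% of all genes. P3H2, a prolyl 3-hydroxylase acting on type IV collagen, rose by 4.01 (SE 0.36, adjusted p = 1.97e-05), and FKBP10, a collagen chaperone, by 1.43 (SE 0.25, adjusted p = 0.0011). P3H1 rose by 1.13 (SE 0.22, adjusted p = 0.00187), and SERPINH1, the collagen-specific chaperone HSP47, by 1.02 (SE 0.28, adjusted p = 0.0125). P4HA2 and P4HB, subunits of prolyl 4-hydroxylase, fell by 1.26 (SE 0.25, adjusted p = 0.00204) and by 1.09 (SE 0.21, adjusted p = 0.00216), and the prolyl isomerase PPIB fell by 1.04 (SE 0.26, adjusted p = 0.00784). The split was 3 higher and 4 lower with median scaling and 3 higher and 6 lower without scaling.

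Genes for trimming and cross-linking of procollagen went 1 way: of 13 listed 8 were tested, 7 rose and none fell, with LOXL2 not called (median 1.34). The share called was 87.5%, beside 62.7% of all genes, 29.7% higher and 33% lower. PCOLCE2, which speeds removal of the C-terminal propeptide, rose by 2.75 (SE 0.61, adjusted p = 0.00424), and ADAMTS2, which removes the N-terminal one, by 2.57 (SE 0.25, adjusted p = 3.53e-05). The cross-linking oxidases LOXL3 and LOX rose by 1.44 (SE 0.27, adjusted p = 0.00151) and 1.39 (SE 0.46, adjusted p = 0.0285), and LOXL2 gave 0.23 (SE 0.23, adjusted p = 0.414). BMP1, the C-terminal propeptidase, and TLL1, TLL2, ADAMTS3 and ADAMTS14 were well above background on no array. Without scaling only 3 of the 8 were called, all higher.

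Of 10 listed receptors 8 were tested, 3 rose and 2 fell (median 0.25), a share called of 62.5% beside 62.7% of all genes. The split was 2 higher and 3 lower with median scaling, without scaling, without non-pregnant array 1, 2 or 4 and without pregnant array 1, 2 or 3. MRC2, which takes up collagen fragments, rose by 3.39 (SE 0.30, adjusted p = 2.07e-05), the fibrillar collagen receptor DDR2 by 2.87 (SE 0.31, adjusted p = 6.67e-05) and the integrin chain ITGA1 by 1.37 (SE 0.45, adjusted p = 0.0259). ITGA2, another collagen-binding integrin chain, fell by 4.27 (SE 0.39, adjusted p = 2.41e-05), and 1 pregnant-labelled array still read it well above background. ITGB1, the partner of both, fell by 0.81 (SE 0.23, adjusted p = 0.0144).

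Of 14 genes listed for breakdown 11 were tested, 6 rose and 2 fell (median 0.65), a share called of 72.7% beside 62.7% of all genes. FAP, a protease of activated fibroblasts, read 3.74, 4.48, 4.53 and 4.88 on the pregnant-labelled arrays against -3.22, -1.15, -2.07 and -2.43, and rose by 6.63 (SE 0.43, adjusted p = 3.47e-06). The gelatinase MMP2 rose by 3.11 (SE 0.37, adjusted p = 1.06e-04), and its membrane-bound activator MMP14 by 3.20 (SE 0.49, adjusted p = 4.75e-04), with 1 of 4 non-pregnant-labelled arrays well above background. The lysosomal protease CTSL read 7.22, 7.10, 6.82 and 6.34 on the non-pregnant-labelled arrays and -1.44, -3.20, -2.17 and -0.45 on the pregnant-labelled ones, and fell by 8.68 (SE 0.53, adjusted p = 2.43e-06). The inhibitor TIMP2 fell by 2.31 (SE 0.55, adjusted p = 0.00602), although pregnant array 4 read 7.44, close to the other group.

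**Figure D4:**
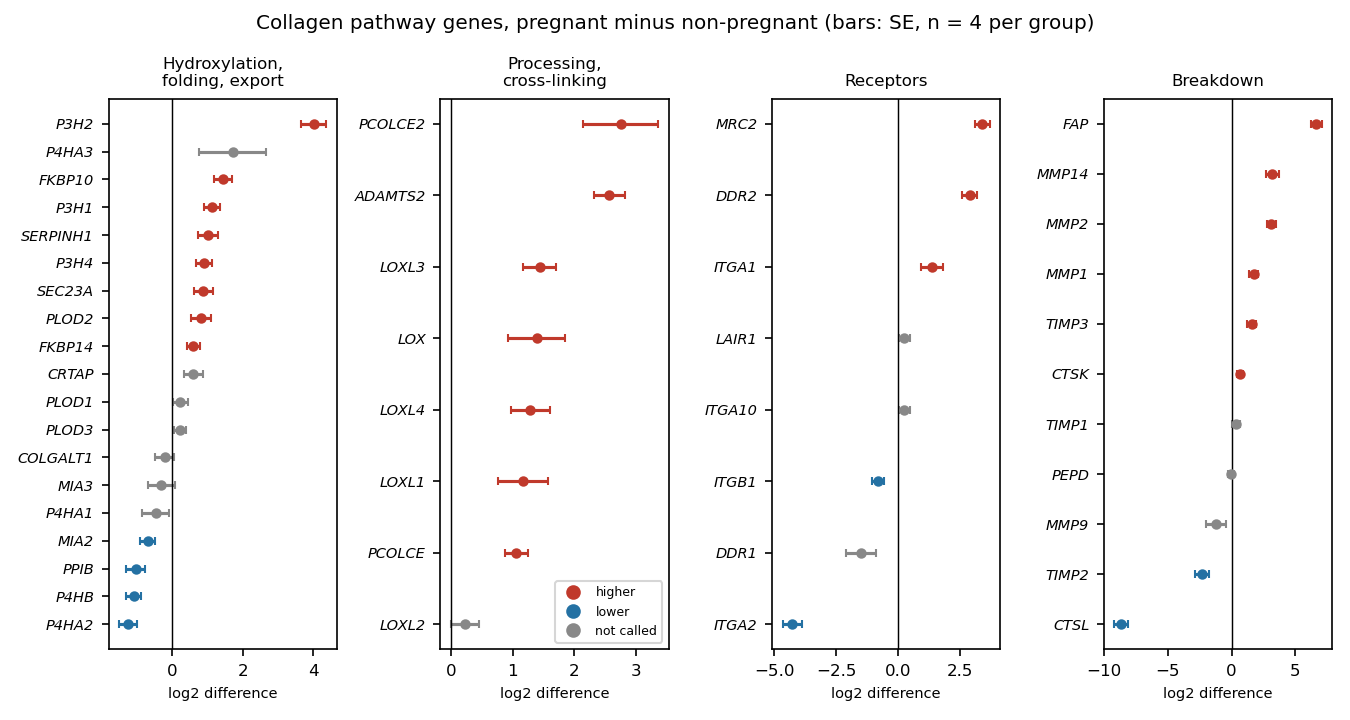
Differences for the tested genes of 4 collagen pathway lists (hydroxylation, folding and export, processing and cross-linking, receptors, breakdown) on the x axis as log2 of the pregnant-labelled arrays minus the non-pregnant-labelled ones, with bars for the SE (4 arrays per group) and axes that differ between panels. Processing genes all lie right of 0, and CTSL at -8.68 and FAP at 6.63 lie farthest from 0.

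Of 20 genes listed for transcriptional and growth factor control of collagen 15 were tested, and of the 14 measured in both groups 5 rose and 5 fell (median 0.51). Over all 15 the calls were 6 higher and 5 lower (73.3% called, beside 62.7% of all genes). They were 4 and 5 with median scaling, without scaling and without non-pregnant array 1 or 4, and 3 and 5 of 14 tested without pregnant array 1, 2 or 3. CIITA, which can repress type I collagen genes, was well above background on no non-pregnant-labelled array and at least 26.6-fold higher, having passed the filter only through the other group. TGFB3 and TGFB2, ligands that raise collagen synthesis, rose by 3.16 (SE 0.42, adjusted p = 2.14e-04) and 2.21 (SE 0.35, adjusted p = 5.96e-04). Their receptor genes in the list went opposite ways. TGFBR1 fell by 5.72 (SE 0.63, adjusted p = 6.60e-05), and 1 pregnant-labelled array still read it well above background. TGFBR2 rose by 1.56 (SE 0.26, adjusted p = 8.15e-04). The transcription factors YBX1 and SP1 fell by 1.46 (SE 0.23, adjusted p = 5.97e-04) and 1.40 (SE 0.20, adjusted p = 3.07e-04), with no overlap between groups.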

How the data were processed

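Messenger RNA of 8 samples was measured on one-colour Agilent arrays after oligo-dT priming and Cy3 labelling, per the labels' protocols. The intensity of each spot, as deposited by the authors, came from Agilent Feature Extraction 11.5.1.1, per the file headers, with background subtracted and no scaling between arrays. The deposited log2 table correlated with the log2 intensity at 0.999 or above per array. Its columns had a 75th percentile near 0 and medians of -4.21, -4.01, -4.00 and -3.77 (labelled non-pregnant) and -3.56, -3.61, -3.64 and -3.61 (labelled pregnant), from which its scale and centring are inferred. Its direction was that of the intensity.

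Here log2 intensity minus each array's 75th percentile was used, with 1319 control spots and 5 to 31 outlier-flagged spots per array left out, spots of a probe averaged and no spot saturated. Probes well above background (at least 0.5 of their spots flagged so by the scanner software) on at least 4 of 8 arrays were tested, 34630 in all, with limma 3.58.1 in R 4.3.3 (lmFit, eBayes, no covariates, Benjamini-Hochberg over all tested probes, threshold 0.05). The fit was tested on simulated data. Each gene was represented by whichever tested probe was brightest on average. A probe that no array of a group read well above background has only a bound there, written as at least N-fold. For it, each dim array took the probe's own value or that of the dimmest probe still well above background, whichever was larger, and the mean of these was set against the bright group's mean. A bound holds under the main background correction and scaling only.

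Probes were named by accession or gene ID in a RefSeq table of assembly ARS-UCD2.0 (28112 by their first accession, 1770 by another, 444 by gene ID), by symbol (5520) or by synonym (152), 5 matched several genes, and 15279 kept the name in the file. Buffalo RNA, as the protocol names it, may bind cattle probes unevenly, and probes can read related genes. The intensity at the 75th percentile ran from 798 to 1797, and the number of arrays limits precision. Every fibrillar and type IV gene and every called collagen gene was named, with array values where the difference was 2 or more or the gene was COL1A1, COL1A2, COL3A1, COL4A1 or COL4A2. Of each pathway list up to 3 called genes per direction were named, plus SERPINH1, P4HB, LOX, LOXL2, MMP2 and BMP1, and TGFBR2 beside TGFBR1. The erythroid list as a whole is not reported here. Members and lists were chosen with earlier results of these data known.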

Additional observations from a re-analysis of the deposited data

Results flagged for a closer look

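In 4 of 64 tests, each on 1 gene in 1 group of 4 arrays, 1 array stood apart from the other 3, its gap to the nearest of them divided by the range of the group being above the critical value of Dixon's test. Chance flags about 1 in 20 such groups. COL4A2 read 1.42 on non-pregnant array 4, with the nearest other array at 2.35 (gap over range 0.888). COL13A1 read -0.37 on the same array, with the nearest other at -0.49 (0.834), a gap that is small beside the rise of 2.78. On pregnant array 4, COL15A1 read -2.88 with the nearest other at -1.24 (0.858), and COL26A1 read -4.28 with the nearest other at -0.77 (0.901). Both genes stayed above every non-pregnant-labelled array.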

How the results depend on the processing

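Of the 32 tested collagen genes 14 kept their direction and side of the threshold in all 19 alternatives that gave a value. The number called, 20, was 18 with median scaling, without scaling and with normexp, 23 with quantile normalization and without a filter, 14 of 21 tested with the strict filter (all 8 arrays) and 17 to 19 without 1 array. The genes gained without a filter, COL6A6, COL21A1 and COL24A1, were well above background on at most 1 array. The fibrillar count of 5 was 3 without scaling, 8 with quantile normalization, 3 of 6 tested with the strict filter and 3 to 6 without 1 array, with 3 when non-pregnant array 4 or pregnant array 1 was left out. The hydroxylation list had 7 called genes with median scaling, the processing list 3 without scaling and the receptor list 3 with quantile normalization. Differences that were not called changed sign for COL4A6 (median scaling -0.36, none -0.45), COL6A5 (-0.36, none -0.45, quantile -0.46), COL8A2 (-0.16, none -0.26, quantile -0.19), COL10A1 (-0.24, none -0.33, quantile -0.35) and COL22A1 (none -0.03, quantile -0.02). The cause was not tested, but median scaling and no scaling moved the median of all genes from -0.03 to -0.419 and -0.517, the percentile over probes detected on all arrays moved it to 0.132 and no filter to 0.229. With the median of a gene's probes the type I chain pair gave -0.14. Without 1 array the ranges were -0.33 to 0.41 (COL4A6), -0.17 to 0.21 (COL6A5), -0.18 to 1.1 (COL8A2), -0.03 to 0.30 (COL10A1), -0.07 to 0.94 (COL23A1), -0.09 to 0.31 (type I pair) and -0.07 to 1.42 (type VIII pair).

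Same-numbered arrays of the groups deviated together only weakly (correlations 0.00906, 0.0753, 0.0495 and 0.155). Weak correlations cannot exclude that such arrays are paired, and the labels do not say. With the replicate block 22 collagen genes were called, gaining COL1A1 and COL2A1. A slide or scan block was not run, since all arrays share both. Signal over background limits the called genes COL4A3, COL5A3, COL9A3, COL11A1, COL11A2, COL26A1 and COL28A1, whose brightest probes were well above background on some arrays only. With the strict filter 6 of them, all but COL11A1, had no probe left to test, so that filter is no check of their calls. COL11A1 was then read by another probe and stayed called.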
